A study of Homo sapiens with 9 samples.

Results

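CTCF sites that carried the cohesin subunit RAD21 but no ZNF143 were examined by ChIP-nexus in HEC-1-B, a human cell line from a uterine adenocarcinoma. In this assay an exonuclease digests the precipitated DNA back to where the protein protects it, and a peak summit therefore lies close to the site of contact. The sites were defined as wild-type CTCF peaks on chromosomes 1 to 22 and X that overlapped a wild-type RAD21 peak by at least 1 bp and no wild-type ZNF143 peak. This rule found 14403 of 52982 CTCF peaks, or 27.2%. The sites were chosen by the peak calls of the 3 wild-type libraries, so their wild-type values below are descriptions. The same sites were then looked up in CTCF and RAD21 libraries of ZNF143 knockout cells (ZNF143KO). They were also looked up in CTCF and ZNF143 libraries of CTCF-AID cells, whose CTCF carries a degron that auxin activates, taken at 0 h and after 24 h of the auxin IAA, which the labels give at 500 µM for TIR1-expressing cells. Each of the 9 libraries is 1 sample of its group, so no difference between conditions has a replicate check, and all intervals are 95% intervals that cover counting error over sites alone. Neither the absence of ZNF143 in the knockout nor the degradation of CTCF by auxin was measured here, and both were taken from the labels.

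CTCF is a zinc finger protein that binds a long, directional DNA motif and anchors chromatin loops. Cohesin is a ring-shaped complex that extrudes loops and is halted where it meets CTCF. RAD21 is the subunit that closes the ring. ZNF143 is a zinc finger activator of promoters, including those of small RNA genes, and has been mapped to many CTCF sites.

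The sites made up 35.6% of all CTCF peaks with RAD21. Another 26072 CTCF peaks carried RAD21 and ZNF143 (triple sites), and 11764 carried neither (CTCF-alone sites). These classes are used below for comparison. Of the wild-type RAD21 peaks, 29.5% overlapped one of the sites, and 16 sites overlapped more than 1 RAD21 peak.

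The sites without ZNF143 were of intermediate strength. Strength was read from the authors' signal value, the fold enrichment at the summit over the local background of the peak caller. The CTCF signal of the sites ran from 2.48 to 29.4, with a median of 10.8 and quartiles of 8.11 and 14.0. The median was 20.9 at triple sites and 7.87 at CTCF-alone sites. In reads, solved from the deposited values as described with the processing, a site had a median of 14 at its CTCF summit, against 32 at a triple site and 10 at a CTCF-alone site. Peak widths followed the same order, with medians of 71, 121 and 46 bp.

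RAD21 was also weaker where ZNF143 was not called. The strongest RAD21 peak over a site had a median signal of 9.73 (quartiles 6.98 and 13.7), against 20.002 at triple sites. In reads the medians at the RAD21 summit were 11 and 29. Across the 14403 sites the CTCF and RAD21 signals were related with a Pearson r of 0.339 and a Spearman rho of 0.333. At triple sites the values were 0.567 and 0.519. These are descriptions across sites, and the signals at a site share local background and mappability.

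The place of the sites in the CTCF list changed steeply with signal. When the list was divided into 10 groups of equal size by CTCF signal, the sites formed 28.0% of the weakest group, 51.8% of group 4 and 50.4% of group 5. Their share fell to 16.5% in group 7 and 0.547% in group 10, where triple sites made up 99.4%. Only 22.5% of the sites lay in the stronger 50% of the list, against 86.7% of triple sites and 3.66% of CTCF-alone sites. At the top of the list nearly every CTCF peak thus had a ZNF143 peak called over it.

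**Figure D1:**
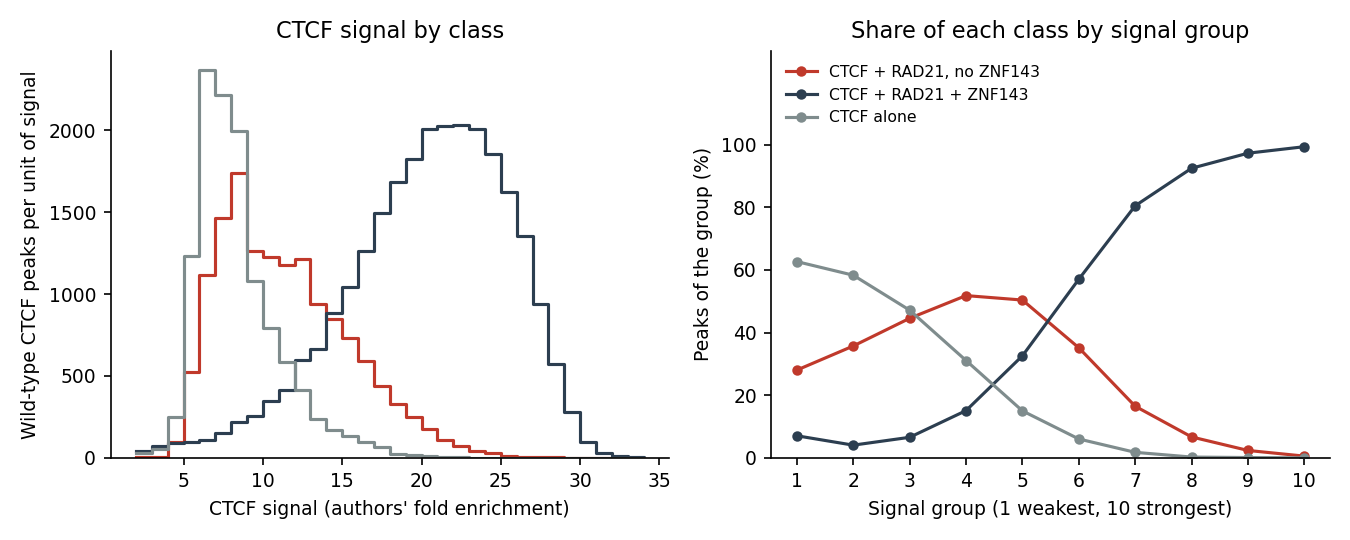
CTCF signal (authors' fold enrichment) of wild-type CTCF peaks, as peaks per unit of signal on the left and as the percentage of each of 10 equal signal groups on the right, for sites with RAD21 and no ZNF143 (red), triple sites (dark) and CTCF-alone sites (grey). The red class is most frequent in groups 4 and 5, at 51.8% and 50.4%, and falls to 0.547% in group 10.

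A few sites without ZNF143 nevertheless ranked among strong CTCF peaks. All coordinates are 1-based on hg19. The strongest lay at chr17:71206642-71206736, with a CTCF signal of 29.4 from 45 reads and a RAD21 signal of 12.5. It had CTCF and RAD21 signals of 22.4 and 9.48 in the knockout, and a CTCF signal of 6.68 in CTCF-AID at 0 h. The second, at chr11:9187524-9187629, had a CTCF signal of 28.8, a RAD21 signal of 23.1 and knockout signals of 25.3 and 23.9. Its CTCF signal was 14.5 in CTCF-AID at 0 h. The third lay at chr2:18299067-18299184, with wild-type CTCF and RAD21 signals of 28.4 and 22.6. Its knockout signals were 24.2 and 20.8, and its 0 h CTCF signal was 15.7. The fourth, at chrX:153176564-153176687, had signals of 28.3 and 16.0 in wild type and 23.1 and 19.7 in the knockout, but no peak in any CTCF-AID list. None of these 4 sites had CTCF at 24 h or ZNF143 at either time. Signal values of different lists are set side by side and do not measure a change, as the libraries differed in depth.

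Most of the sites were far from any called ZNF143 peak. The median gap from a site to the nearest wild-type ZNF143 peak was 23738 bp, and 70.7% of sites were at least 10 kb away. Only 5.73% (5.35 to 6.12) lay within 1 kb, against 8.87% (8.37 to 9.40) of CTCF-alone sites. Near the edge of the 1 bp rule, 8 sites were within 10 bp of a ZNF143 peak, and 12 triple sites owed their class to an overlap under 10 bp. The class nevertheless depended on how overlap was defined. With a reciprocal overlap of 50%, under which a peak covered by less than that counts as absent, 19766 CTCF peaks (37.3%) met the rule, with a median signal of 15.3. Just inside the rule were chr9:86535676-86535715, which abutted a ZNF143 peak, and chr10:15691556-15691586, with a gap of 2 bp. Their CTCF signals were 7.12 and 8.92. Just outside were chr19:43523942-43523993 and chr3:61237028-61237069, each with 1 bp of overlap and CTCF signals of 8.59 and 10.97. The sites were also spread out among CTCF peaks: another CTCF summit lay within 1 kb of 6.40% (6.01 to 6.81) of them, against 8.16% (7.83 to 8.50) of triple sites.

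CTCF and RAD21 summits were close together at sites without ZNF143. In wild type the RAD21 summit lay a median 14 bp from the CTCF summit (quartiles 6 and 26), and 40.8% of sites had them within 10 bp. At triple sites the median was 16 bp, with quartiles of 6 and 30. Distances beyond 50 bp were seen at 386 sites, or 2.68%. The overlap rule limits this distance, and the limit is tighter for the narrower peaks of the sites without ZNF143. Within signal groups the order of the classes was not constant. In group 4 the median was 14 bp (13 to 15) at sites without ZNF143 and 12 bp (10 to 13) at triple sites. In group 7 it was 12 bp (11 to 13) against 15 bp (15 to 16). From group 1 to group 9 the median at sites without ZNF143 went from 16 to 10 bp.

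In the knockout libraries the summits were slightly closer at these sites, although they had no called ZNF143 peak in wild type. At the 13520 sites with CTCF and RAD21 in the knockout and summits within 200 bp, the median distance was 14 bp in wild type and 12 bp (11 to 12) in the knockout. The mean distance changed by -1.67 bp (-1.98 to -1.36). It shortened at 53.2% of sites, lengthened at 43.4% and was equal at 3.39%. At 25750 triple sites measured in the same way the mean change was -2.07 bp (-2.29 to -1.84), and 53.4% were shorter. For single sites, the distance between the CTCF summits of the 2 genotypes had a median of 8 bp. Depth also differed between the genotypes, and its part in the change was not tested. The 2 distances differed in definition as well. In wild type only overlapping RAD21 peaks were used, and in the knockout the nearest RAD21 summit of any peak. The knockout rule can only give an equal or shorter distance, and its part in the change was not tested.

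The RAD21 summit tended to lie on the same side of the CTCF summit in both genotypes. Over the sites as a whole there was little preference for higher coordinates, where the RAD21 summit lay in 48.4% of cases (47.6 to 49.2). At the 5211 sites with at least 10 bp between the summits in both genotypes, 76.3% (75.1 to 77.4) had RAD21 on the same side of CTCF in the knockout as in wild type. With at least 20 bp the share was 85.5% (83.9 to 87.0) of 2077 sites. These CTCF and RAD21 libraries were separate in each genotype, so the agreement came from 4 different libraries. At triple sites 86.7% (86.0 to 87.3) kept the side at 10 bp. At equal CTCF signal the sites without ZNF143 kept it less often than triple sites by 4.13 percentage points (0.781 to 7.47), as shares of 76.3% and 80.4%. Across signal groups 1 to 9 the share at sites without ZNF143 ranged from 71.2% in group 1 to 80.6% in group 9. The interval was 67.3% to 74.9% in group 1 and 64.0% to 91.8% in group 9.

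**Figure D2:**
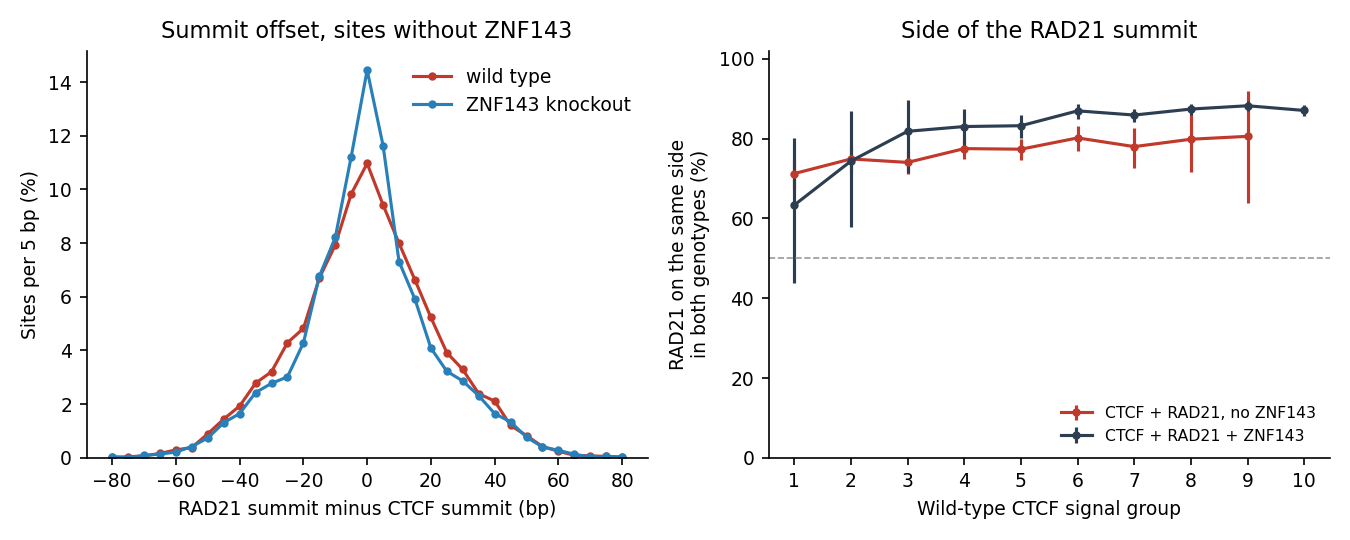
Left, RAD21 summit position minus CTCF summit position in bp at 13520 sites without ZNF143, as the percentage of sites per 5 bp in wild type (red) and in the knockout (blue). Right, percentage of sites with RAD21 on the same side in both genotypes (distances of at least 10 bp) by wild-type CTCF signal group, with 95% exact intervals and a dashed line at 50%, for sites without ZNF143 (red) and triple sites (dark). The bin at 0 bp holds 10.97% of wild-type and 14.4% of knockout distances, and the red points lie between 71.2% and 80.6%. Groups with under 20 sites are not drawn.

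Nearly all sites without ZNF143 had CTCF again in the knockout. A knockout CTCF peak was present at 14101 sites, or 97.9% (97.7 to 98.1), whereas 94.0% of all wild-type CTCF peaks were found there. RAD21 was present at 13735 sites, or 95.4% (95.01 to 95.7), against 83.4% of all CTCF peaks. The latter figure includes peaks without RAD21 in wild type, so the sites were above it by their definition. Both factors were present at 93.9% (93.5 to 94.3), against 82.3% of all CTCF peaks. Background density, a measure of depth, was higher in the knockout libraries, at 18.9 reads per kb against 8.63 for CTCF and 26.1 against 7.81 for RAD21. When each knockout list was held to the number of peaks of the wild-type list, 93.5% of sites kept CTCF, 90.3% kept RAD21 and 86.4% kept both.

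Where a site was not fully recovered in the knockout, RAD21 was more often the factor without a peak. CTCF alone was found at 571 sites (3.96%), RAD21 alone at 205 (1.42%) and neither at 97 (0.673%). At triple sites the numbers were 118 (0.453%), 66 (0.253%) and 109 (0.418%). Of all wild-type CTCF peaks, which include peaks without RAD21, 16.6% had no knockout RAD21 peak and 6.02% no knockout CTCF peak. The 571 sites had weak RAD21 in wild type, with a median signal of 6.01, against 10.1 at sites that kept both. The 97 sites had medians of 6.66 for CTCF and 5.80 for RAD21. Their widths had a median of 31 bp, and their local background reached 16.9 reads. The strongest of the 97 was at chr10:21626616-21626667, with a CTCF signal of 11.4 and a RAD21 signal of 6.74. The next were at chr18:57383278-57383319, with signals of 11.4 and 5.15, and chr7:3234350-3234417, with signals of 11.2 and 6.01. None of these 3 had a peak in any CTCF-AID list.

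Recovery in the knockout depended on strength. For CTCF it rose from 90.7% (89.1 to 92.1) in the weakest signal group to 99.9% in group 5, and every site of groups 6 to 10 was found. For RAD21 it rose from 90.4% to 97.2% between the same groups, and 45 of 1862 sites of group 6 still had no RAD21 peak.

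Compared with triple sites, the sites without ZNF143 were recovered less often in the whole list, and the differences at equal signal depended on the setting. The difference was -1.43 points (-1.69 to -1.18) for CTCF and -3.77 points (-4.14 to -3.41) for RAD21. When differences were taken within the 10 CTCF signal groups and averaged with the numbers of the sites as weights, they were 3.76 points (2.89 to 4.63) and 1.61 points (0.717 to 2.49). For CTCF the difference was 1.18 points (0.661 to 1.69) at equal RAD21 signal and 0.0879 points (-0.777 to 0.952) at a reciprocal overlap of 50%, where the interval included 0. For RAD21 the same settings gave -0.232 points (-0.852 to 0.388) and 0.972 points (-0.137 to 2.08). The positive values by CTCF signal came with a contrast in the weakest group, where triple sites had a median local background of 7.74 reads and the sites without ZNF143 one of 0.248. Limited to sites with a local background of at most 1 read, the difference was 2.58 points (0.955 to 4.20) for CTCF and -0.0130 points (-1.61 to 1.58) for RAD21. In group 6, where CTCF was found at nearly every site, RAD21 was kept at 97.6% (96.8 to 98.2) of sites without ZNF143 and 99.6% (99.3 to 99.8) of triple sites. CTCF-alone sites of equal signal kept CTCF less often, by 9.62 points (9.10 to 10.1).

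In untreated CTCF-AID cells CTCF was called at a minority of the sites under the 1 bp rule. It was present at 4663 of them at 0 h, or 32.4% (31.6 to 33.1), against 55.1% of all wild-type CTCF peaks. Triple sites had it in 90.9% of cases and CTCF-alone sites in 4.81%. At a reciprocal overlap of 50% the share was 51.2% (50.5 to 51.9) of 19766 sites, no longer a minority. The cells carry the tagged CTCF and, per the labels, TIR1, and had received no auxin at this time. Background density for CTCF was higher in these cells than in wild type, at 12.8 against 8.63 reads per kb. The 0 h CTCF list was nevertheless shorter, with 30374 peaks against 52982 in wild type. Its peaks were also wider, with a median of 169 bp against 90 bp. The part of these differences between the lists in the share of 32.4% was not tested.

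The difference from triple sites remained at equal wild-type signal, where it was -40.6 points (-42.3 to -39.0). In signal group 6, CTCF was called at 50.6% (48.3 to 52.9) of sites without ZNF143 and at 82.99% (81.6 to 84.3) of triple sites, with median local backgrounds of 0.356 and 0.416 reads. In group 8 the shares were 66.9% (61.7 to 71.7) and 94.7% (94.1 to 95.4). At equal RAD21 signal in place of CTCF signal the difference was -43.0 points (-44.2 to -41.7). With a local background of at most 1 read it was -30.5 points (-33.0 to -28.1), and at a reciprocal overlap of 50% it was -17.7 points (-19.1 to -16.3). Where a 0 h CTCF peak was present its signal had a median of 8.97, against 18.4 at triple sites. Its summit lay a median 12 bp from that of wild type.

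The sites found again at 0 h were the stronger ones. Those with CTCF at 0 h alone had median wild-type CTCF and RAD21 signals of 13.0 and 13.3, and those with no CTCF at either time had medians of 9.73 and 8.59.

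**Figure D3:**
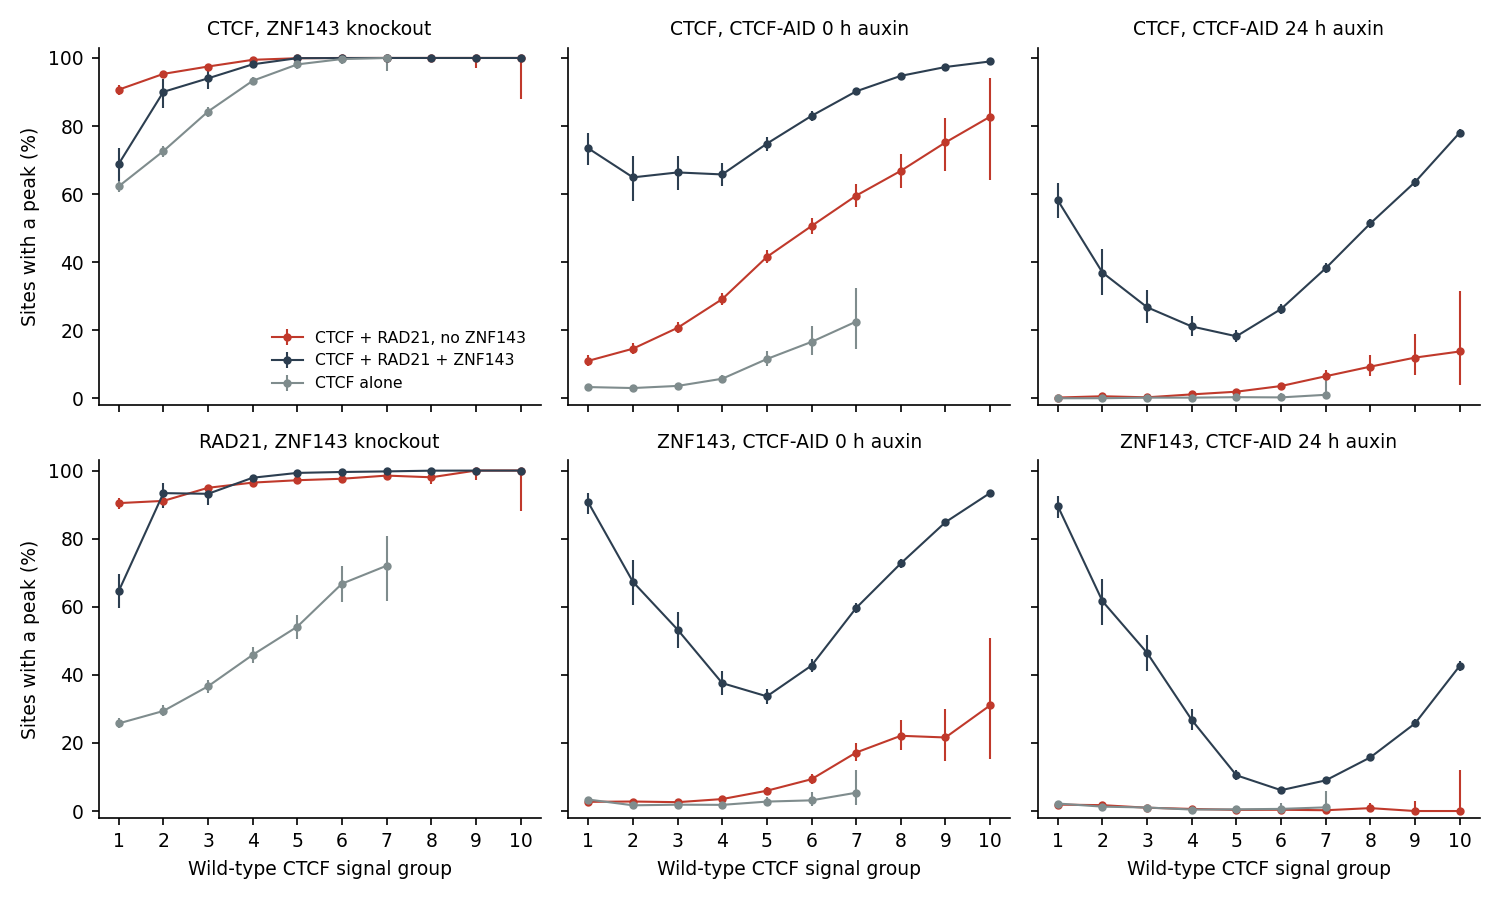
Percentage of wild-type CTCF sites with a peak in each of 6 other libraries, by wild-type CTCF signal group (1 weakest, 10 strongest), for sites without ZNF143 (red), triple sites (dark) and CTCF-alone sites (grey), with exact 95% intervals over sites and no point under 20 sites. Recovery in the knockout is above 90% in each group of the red class, while CTCF at 0 h rises from 11.1% in group 1 to 82.8% in group 10 and stays below the triple sites.

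After 24 h of auxin few sites without ZNF143 had CTCF. A peak was called at 287 sites, or 1.99% (1.77 to 2.23), against 25.6% of all wild-type CTCF peaks and 50.6% of triple sites. At a reciprocal overlap of 50%, which also let in CTCF peaks that ZNF143 overlapped in part, the share was 8.32% (7.94 to 8.72) of 19766 sites. Of those with CTCF at 0 h, 11.4% (10.8 to 12.0) had it at 24 h. Of the 4663 sites with CTCF at 0 h, 282 had it at 24 h, or 6.05% (5.38 to 6.77), while 46.1% of all CTCF peaks with CTCF at 0 h had it at 24 h. The 24 h CTCF library was the shallowest, at 3.88 background reads per kb against 12.8 at 0 h, and the part of depth in these shares was not tested. When the 0 h list was held to the number of peaks of the 24 h list, 2.26% of sites had CTCF at 0 h, beside 1.99% at 24 h. Of those 326 sites, 39.0% (33.6 to 44.5) had CTCF at 24 h. This setting drops the weaker 0 h peaks and takes away any difference in peak number between the times. It therefore cannot show how much CTCF was lost. At equal 0 h signal, sites without ZNF143 kept CTCF less often than triple sites, by 14.7 points (13.7 to 15.6), as shares of 6.05% and 20.7%.

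The sites with CTCF at 24 h were stronger in wild type than the sites without ZNF143 as a whole. The median CTCF signal was 10.8 over all sites without ZNF143, 14.5 over the whole CTCF list and 20.9 at triple sites. The 282 with CTCF at both times had median CTCF and RAD21 signals of 15.4 and 17.0. The strongest was at chr16:30933020-30933181, with a wild-type CTCF signal of 28.0 and RAD21 signal of 22.97, and CTCF signals of 24.2 at 0 h and 7.82 at 24 h. Another, at chr18:34965954-34966034, had wild-type signals of 25.7 and 20.3 and CTCF signals of 25.1 and 7.22 at the 2 times. The third, at chr6:34495064-34495158, had wild-type signals of 25.6 and 15.1 and CTCF signals of 21.0 and 4.56. The last 2 also had a ZNF143 peak at 0 h, with signals of 7.75 and 8.34, and none at 24 h.

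ZNF143 was called in CTCF-AID cells at a small number of the sites that lacked it in wild type. At 0 h it was present at 848 sites, or 5.89% (5.51 to 6.28), against 37.3% of all CTCF peaks, 70.0% of triple sites and 2.41% of CTCF-alone sites. Triple sites were chosen by a wild-type ZNF143 peak and the sites here by its absence. The rule thus partly set this contrast with triple sites, here and at 24 h. At a reciprocal overlap of 50% the share with ZNF143 at 0 h was 18.2% (17.7 to 18.8) of 19766 sites. That set includes sites with a smaller overlap with a wild-type ZNF143 peak. At equal CTCF signal the sites exceeded CTCF-alone sites by 2.25 points (1.32 to 3.18). The share was higher in the stronger signal groups, going from 2.70% (1.93 to 3.65) in group 1 to 17.2% (14.7 to 19.9) in group 7. The ZNF143 peaks at these sites were weak, with a median signal of 7.11, against 11.6 at triple sites. The 0 h ZNF143 library had 13.5 background reads per kb and the wild-type one 5.96. A ZNF143 peak below the wild-type threshold cannot be told apart from absence in the deposited lists.

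At 0 h ZNF143 and CTCF were found together. Of the 848 sites with ZNF143, 738 also had a 0 h CTCF peak, or 87.0% (84.6 to 89.2), against 29.0% (28.2 to 29.7) of the sites without ZNF143 at 0 h. At equal wild-type CTCF signal the difference was 47.1 points (44.8 to 49.3). CTCF at 0 h was present at 55.1% of all wild-type CTCF peaks and 90.9% of triple sites. How often it went with ZNF143 at 0 h in those classes was not examined, so the pattern is not shown to be particular to the sites.

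At 24 h ZNF143 was present at 121 sites, or 0.840% (0.698 to 1.00), against 12.2% of all CTCF peaks, 22.8% of triple sites and 1.31% of CTCF-alone sites. Of the 848 sites with ZNF143 at 0 h, 96 had it at 24 h, or 11.3% (9.27 to 13.6), whereas 32.1% of all CTCF peaks with ZNF143 at 0 h had it at 24 h. The ZNF143 lists of the 2 times held 34531 and 16392 peaks, from libraries with 13.5 and 12.1 background reads per kb. At a reciprocal overlap of 50% the kept share was 5.96% (5.21 to 6.79). At equal 0 h ZNF143 signal the sites differed from triple sites by -2.94 points (-5.16 to -0.725). When the 0 h list was held to the number of peaks of the 24 h list, 0.396% of sites had ZNF143 at 0 h, and 29.8% (18.4 to 43.4) of those 57 sites had it at 24 h. This setting has the same limit as for CTCF.

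The sites with ZNF143 at 24 h differed in strength from those with ZNF143 at 0 h alone. The 752 sites with ZNF143 at 0 h alone had a median CTCF signal of 15.2 and a median RAD21 signal of 13.4. The 96 sites with ZNF143 at both times had medians of 8.11 and 6.90. Of the 121 sites with ZNF143 at 24 h, 15 had CTCF at that time, or 12.4% (7.11 to 19.6). The share was 1.90% (1.69 to 2.14) of the sites without ZNF143 at 24 h and 25.6% of all CTCF peaks. In the knockout CTCF was present at 71.9% (63.0 to 79.7) of the 121, against 98.1% (97.9 to 98.3) of the sites without ZNF143 at 24 h and 94.0% of all CTCF peaks. RAD21 was present at 80.2% (71.9 to 86.9), against 95.5% (95.1 to 95.8) of the sites without ZNF143 at 24 h and 83.4% of all CTCF peaks. The strongest sites with ZNF143 at both times were at chr6:11094303-11094460, with a CTCF signal of 21.6 and ZNF143 signals of 14.8 and 15.5, and at chr4:113558549-113558655, with a CTCF signal of 21.5 and ZNF143 signals of 12.7 and 7.40. The third, at chr17:41150079-41150236, had a CTCF signal of 19.8 and ZNF143 signals of 12.0 and 4.97. The first and the third lay 209 and 32 bp from a wild-type ZNF143 peak, and the other 32588 bp away.

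The presence of ZNF143 in CTCF-AID cells was related to the gap to the nearest wild-type ZNF143 peak. At 0 h it was found at 39.6% (25.8 to 54.7) of the 48 sites under 50 bp away, 12.3% (9.74 to 15.2) of the 586 sites from 200 bp to 1 kb and 4.49% (4.10 to 4.91) of the 10177 sites at 10 kb or more. At 24 h the shares were 20.8% (10.5 to 35.0), 4.78% (3.20 to 6.83) and 0.206% (0.128 to 0.315). Presence needed 1 bp of overlap, and the 0 h ZNF143 peaks were wider than wild-type ones, with medians of 83 and 66 bp. At the shortest gaps a peak over a site may therefore be the neighbouring wild-type one, which was not tested. Most of the 848 sites were nevertheless distant ones, since 457 lay at 10 kb or more. CTCF at 0 h was present at 50% (35.2 to 64.8) of the sites under 50 bp, 60.2% (52.9 to 67.2) of the 191 sites from 50 to 200 bp and 29.5% (28.7 to 30.4) of those at 10 kb or more. The knockout shares ran the other way, and the sites under 50 bp were weaker, with a median CTCF signal of 9.16 against 10.8 at 10 kb or more. CTCF was present there at 85.4% (72.2 to 93.9) of the sites under 50 bp and 98.3% (98.0 to 98.6) of those at 10 kb or more, and RAD21 at 87.5% (74.8 to 95.3) and 95.9% (95.5 to 96.3).

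**Figure D4:**
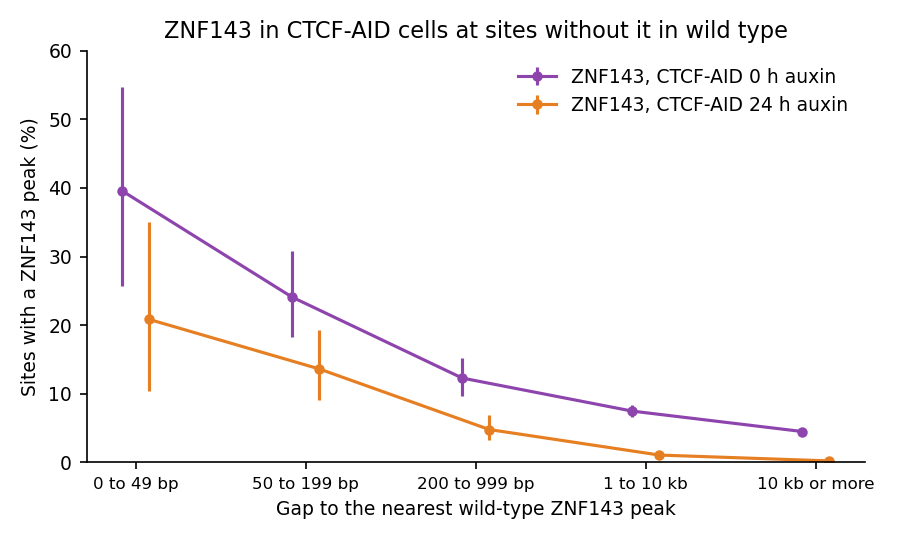
Percentage of sites without wild-type ZNF143 that had a ZNF143 peak in CTCF-AID cells at 0 h (purple) and 24 h (orange) of auxin, by the gap to the nearest wild-type ZNF143 peak, with exact 95% intervals over sites. The share goes from 39.6% to 4.49% at 0 h and from 20.8% to 0.206% at 24 h.

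The sites without ZNF143 were not spread evenly over the chromosomes. Their share of CTCF peaks was highest on chromosome X, at 39.6% (37.3 to 42.0), and chromosome 4, at 38.8% (36.7 to 41.0). It was lowest on chromosome 19, at 20.6% (18.8 to 22.4), and chromosome 17, at 20.7% (19.1 to 22.4), 2 chromosomes rich in genes. The intervals of X and 4 did not overlap that of any other chromosome. The median CTCF signal of the sites varied little, from 10.4 on chromosome 16 to 11.2 on chromosome 17. Recovery of CTCF in the knockout was between 95.1% and 99.4% on every chromosome.

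The share of sites with CTCF in CTCF-AID cells at 0 h also differed by chromosome. It was 44.3% (40.7 to 47.8) on chromosome 4 and 44.2% (40.4 to 48.0) on chromosome X, and 20.6% (16.8 to 24.7) on chromosome 16 and 23.4% (20.3 to 26.8) on chromosome 9. Over all wild-type CTCF peaks the shares on these chromosomes were, in the same order, 58.2%, 59.5%, 49.2% and 51.6%. The share over all CTCF peaks ranged from 48.4% on chromosome 13 to 61.1% on chromosome 19. Triple sites varied less, from 86.7% on chromosome 16 to 93.3% on chromosome 12. Differences in chromosome copy number between the lines were not measured here, and their part in these shares was not tested.

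**Figure D5:**
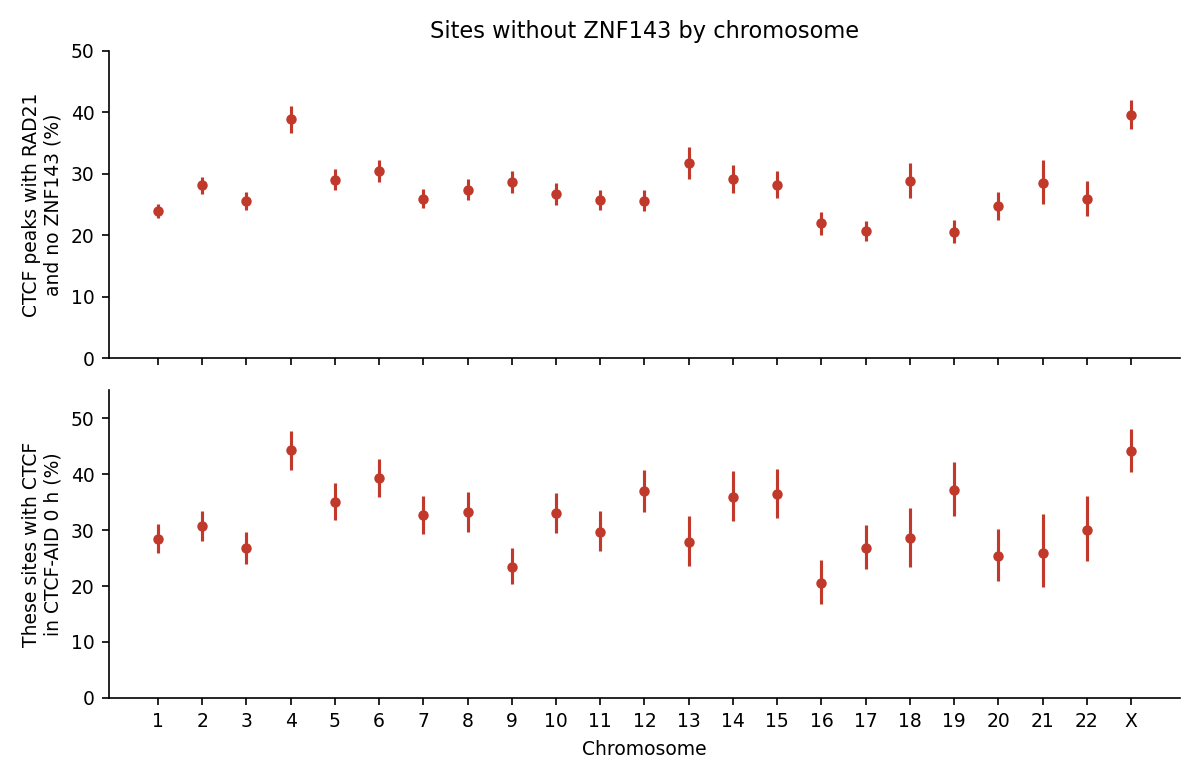
For each chromosome, the percentage of wild-type CTCF peaks with RAD21 and no ZNF143 (top) and the percentage of those sites with a CTCF peak in CTCF-AID cells at 0 h (bottom), with exact 95% intervals over sites. Chromosomes 4 and X are highest in both plots, at 38.8% and 39.6% and at 44.3% and 44.2%.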

How the data were processed

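Peaks were deposited by the authors per sample in the narrow-peak layout. Per the submitters' processing notes, cutadapt 2.10, Bowtie2 2.3.5.1, SAMtools 1.12, MACS2 2.2.7.1 and deepTools were used on hg19, with no role, threshold or filter given. The deposited signal was read as a fold ratio at the summit over local background, the deposited score as the whole part of 10 times −log10 q, and the deposited −log10 p and −log10 q as such. Both knockout lists begin at a −log10 q of 5.00 and the others at about 3. A peak was present where it overlapped by at least 1 bp. Read counts at summits and local background were solved from the ratio and −log10 p under a Poisson model with 1 added to each, and whole counts gave −log10 p within 0.002 for 100% of peaks. The commonest background over the shortest peak length gave reads per kb.

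Shares carry exact (Clopper-Pearson) intervals, plain differences Newcombe intervals, medians order-statistic intervals, and mean changes and equal-signal differences normal intervals. Equal-signal differences were averaged over 10 groups with the numbers of sites without ZNF143 as weights. With 1 library a group no test between conditions was made. Alternatives changed the overlap, strength, ZNF143 distance, matching and list size. Sites and tests were chosen with earlier results of these data known. Named sites are the strongest of each kind by a fixed rule. Sequence motifs and gene starts were planned but not analysed here, as no hg19 sequence or annotation was used. The code was tested on simulated data and ran under matplotlib 3.10.9, scipy 1.17.1, pandas 2.3.3, numpy 2.4.6 and Python 3.11.15.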

Additional observations from a re-analysis of the deposited data

Results flagged for a closer look

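Outside the chromosomes used, 58 of 252 wild-type CTCF peaks on chromosome Y (23.02%, 18.0 to 28.7) carried RAD21 and no ZNF143, and 64 of 349 on the mitochondrial and unplaced sequences (18.3%, 14.4 to 22.8). They are listed because no comparison above used these sequences, and their number is not by itself a finding. Their median CTCF signals were 9.08 and 7.48. The cell line is from a uterine adenocarcinoma, and whether the peaks called on chromosome Y reflect binding there was not tested. The same holds for the mitochondrial and unplaced sequences.

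On chromosome Y, 53 of the 58 had CTCF in the knockout (91.4%, against 79.0% of all 252 CTCF peaks there) and 52 had RAD21 (89.7% against 79.0%). In CTCF-AID cells 34 had CTCF at 0 h (58.6% against 71.0%) and 7 at 24 h (12.1% against 23.8%). ZNF143 was present at 20 at 0 h (34.5% against 68.3%) and 16 at 24 h (27.6% against 55.6%).

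On the mitochondrial and unplaced sequences, 47 of the 64 had CTCF in the knockout (73.4%, against 71.3% of all 349 CTCF peaks there) and 56 had RAD21 (87.5% against 72.2%). In CTCF-AID cells 36 had CTCF at 0 h (56.3% against 63.9%) and 5 at 24 h (7.81% against 24.1%). ZNF143 was present at 26 at 0 h (40.6% against 62.2%) and 25 at 24 h (39.1% against 47.9%).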

How the results depend on the processing

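No paired analysis was possible because each group has 1 library. Of 92 alternative values of 20 results, 31 stayed within the 95% interval of the reported value, 59 moved and 2 changed sign. The cause was not tested. The settings of a local background of at most 1 read and of a held list size, and the other settings tried for sites kept from 0 h to 24 h and for the side of RAD21, were added after the data were seen. Motif and gene-start alternatives were not run.

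With a reciprocal overlap of 50% for the rule and for presence, the sites were 37.3% of CTCF peaks with a median signal of 15.3. CTCF and RAD21 were kept in the knockout at 93.3% and 84.0%, and both at 80.9%. CTCF was present at 51.2% (0 h) and 8.32% (24 h), and ZNF143 at 18.2% and 1.24%. Equal-signal differences from triple sites were 0.0879 points for knockout CTCF, -17.7 and -26.2 for CTCF at 0 h and 24 h, and -40.9 and -25.4 for ZNF143. The ZNF143 differences, here and below, were partly set by the rule, which divided the classes by wild-type ZNF143 peaks. Of sites with CTCF or ZNF143 at 0 h, 11.4% and 5.96% kept it.

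At a −log10 q of at least 5 the median signal was 11.4, CTCF, RAD21 and both were kept in the knockout at 98.4%, 96.6% and 95.6%, and CTCF and ZNF143 were present at 0 h at 35.7% and 6.29%. With no ZNF143 summit within 500 bp, the sites were 26.4% of peaks, with ZNF143 at 5.45% (0 h) and 0.543% (24 h). With summits within 100 bp, knockout CTCF was kept at 97.6% and both factors at 93.5%, and CTCF was present at 24 h at 2.36%.

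In the stronger 50% of the list the sites were 12.2% of peaks with a median signal of 16.7 and offsets of 12 bp (wild type) and 10 bp (knockout). There the knockout kept CTCF at 100%, RAD21 at 98.0% and both at 98.0%. CTCF was present at 56.0% (0 h) and 5.46% (24 h), ZNF143 at 13.5% and 0.370%, and RAD21 kept its side at 79.5%. The side was kept at 71.1% with distances of at least 5 bp and at 85.5% with at least 20 bp.

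The difference for knockout RAD21 was 0.519 points with 20 signal groups, -0.232 at equal RAD21 signal and -0.0130 at a local background of at most 1 read, so its sign was not stable. Equal RAD21 signal gave 1.18 points for knockout CTCF, -43.0 for 0 h CTCF, and -49.9 and -26.1 for ZNF143 at 0 h and 24 h. The low-background sites gave 2.58 for knockout CTCF, -30.5 and -12.5 for CTCF at 0 h and 24 h, and -32.8 and -18.9 for ZNF143. In the main setting, at equal CTCF signal, the difference was -28.3 points for CTCF at 24 h. For ZNF143 it was -46.3 points at 0 h and -33.1 points at 24 h.

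Knockout lists at wild-type size kept CTCF at 93.5%, RAD21 at 90.3% and both at 86.4%. With 0 h lists at 24 h size, 2.26% of sites had CTCF and 0.396% ZNF143 at 0 h, and 39.0% and 29.8% of those kept it.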
